A study of Mus musculus with 6 samples.

Results

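The classical cadherins Cdh1, Cdh2, Cdh3, Cdh4, Cdh6, Cdh8 and Cdh11, the related Cdh13, the neural cell adhesion molecule Ncam1 and the alpha-catenin Ctnna2 were followed through their accessible chromatin. Every region of the deposited table whose midpoint lay in the RefSeq gene body of one of these 10 genes, or within 50 kb of it, was taken, whatever its counts. This rule gave 75 of 43523 regions. Ctnna2 held 29 of them, Cdh6 10, Cdh4 and Cdh13 9 each, Cdh2 5, Cdh1 4, Cdh8 and Cdh11 3 each, and Cdh3 and Ncam1 2 each. Cdh1 and Cdh3 are neighbours on chromosome 8, and 1 region fell in the windows of both and was counted once in the total.

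Nephron progenitors, the mesenchymal cells from which nephron epithelium forms, were taken from kidneys of the CD1 strain, either before birth (E14.5) or on the day of birth (P0). Open chromatin was measured by ATAC-seq, in which the transposase Tn5 tags accessible DNA, with 3 libraries a stage. Each library came from up to 24 kidneys of a litter that were pooled, and its 50000 cells had been selected on beads with antibodies to Itga8, an integrin of these cells. Both stages carried the same strain background, no allele or agent set them apart, and animals within a pool cannot be told apart. The libraries of a stage were taken as separate pools, as the protocol pools by litter, and if they shared animals the spread below would be partly technical. Counts in regions totalled 6492996 to 12292629 a library.

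Cadherins are calcium-dependent adhesion molecules that bind cadherins on the neighbouring cell and, through beta-catenin and alpha-catenins, the actin skeleton. Type I members, such as E-cadherin (Cdh1) and N-cadherin (Cdh2), make the strong contacts of epithelia and of condensed mesenchyme, and type II members, such as Cdh6 and Cdh11, mark subsets of cells in developing organs. When kidney mesenchyme turns into epithelium, condensed progenitors carrying Ncam1 and mesenchymal cadherins give rise to vesicles in which E-cadherin and Cdh6 appear, the former mainly in the future distal part and the latter in future proximal tubule.

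The promoters at which the accessibility below was measured are shown first for the 3 of the 10 genes matched in the RefSeq promoter table (GRCm38.p6). Cdh6, Cdh8 and Ctnna2 each had a changed region away from an own promoter that did not pass the test. The same held for Cdh2, Cdh11 and Cdh13, whose promoters were not matched there. Each sequence is the 250 bases before the start on the minus strand, written 5′ to 3′: Cdh6 at chr15:13173676-13173925, Cdh8 at chr8:99416472-99416721 and Ctnna2 at chr6:77979668-77979917. Capitals mark the E-box bound by Snail and Zeb factors, searched as CAGGTG or its reverse complement CACCTG on both strands.
Cdh6: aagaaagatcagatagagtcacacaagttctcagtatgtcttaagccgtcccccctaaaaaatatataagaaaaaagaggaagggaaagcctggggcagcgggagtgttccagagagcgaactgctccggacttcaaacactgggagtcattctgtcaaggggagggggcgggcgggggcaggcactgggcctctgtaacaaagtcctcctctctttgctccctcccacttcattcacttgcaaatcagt
Cdh8: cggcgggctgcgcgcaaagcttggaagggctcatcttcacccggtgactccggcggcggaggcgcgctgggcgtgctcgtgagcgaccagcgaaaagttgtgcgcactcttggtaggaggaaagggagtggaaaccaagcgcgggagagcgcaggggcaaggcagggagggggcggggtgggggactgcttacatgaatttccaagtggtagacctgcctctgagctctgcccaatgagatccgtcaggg
Ctnna2: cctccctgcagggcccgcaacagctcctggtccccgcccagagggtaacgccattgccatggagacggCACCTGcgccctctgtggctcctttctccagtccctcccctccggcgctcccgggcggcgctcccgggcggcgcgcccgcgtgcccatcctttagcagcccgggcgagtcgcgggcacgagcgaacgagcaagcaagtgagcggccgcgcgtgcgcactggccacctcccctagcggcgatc

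The Ctnna2 window held 1 match, whose first base lay 182 bases before the start, and the Cdh6 and Cdh8 windows held none. Over 32851 RefSeq promoter windows of this length, 17.2% held the motif. The Ctnna2 window was 73.2% G and C with 30 CG dinucleotides, the Cdh8 window 64.4% with 20, and the Cdh6 window 51.2% with 6, beside a median of 52.4% and 6 over all windows. Ctnna2 and Cdh8 thus lay above the median promoter in G and C, and Cdh6 close to it. All 3 windows lay inside regions listed as accessible.

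Accessibility at these genes moved in both directions between the stages. At a Benjamini-Hochberg adjusted p under 0.05 in edgeR's quasi-likelihood test over the whole table, 9 of the 75 regions (12%) differed, 4 of them higher at P0 and 5 lower, where 4.73% of all regions differed, 1.79% higher and 2.94% lower. The higher ones lay at Cdh2 (2 regions), Cdh6 and Cdh11, and the lower ones at the Cdh4 promoter, in Cdh13, upstream of Cdh8 and in Ctnna2 (2 regions). Cdh1, Cdh3 and Ncam1 had none. At an unadjusted p under 0.05 there were 21 regions, 10 higher and 11 lower (28.0%, against 18.7% of all regions). All P0 libraries lay above all E14.5 libraries in 10 regions (13.3%, against 11.8% of all) and below them in 14 (18.7%, against 12.4%). The 24 regions without overlap were 32.0% of the 75, beside 24.2% of all. The median log2 fold change of P0 over E14.5 was 0.09 at these genes and 0.01 over all regions, with a range from -1.30 to 1.53. At a threshold of 0.1, 12 of the 75 passed, where 8.02% of all regions did. All 9 calls were lost without P0 replicate 1, and 1 was left without E14.5 replicate 3. Calls were also lost over the whole table. There 2059 regions passed with all libraries, 474 without P0 replicate 1 and 339 without E14.5 replicate 3. A lower count in bulk nuclei can mean fewer cells with an open region or a less open region in each cell, and these cannot be told apart.

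**Figure D1:**
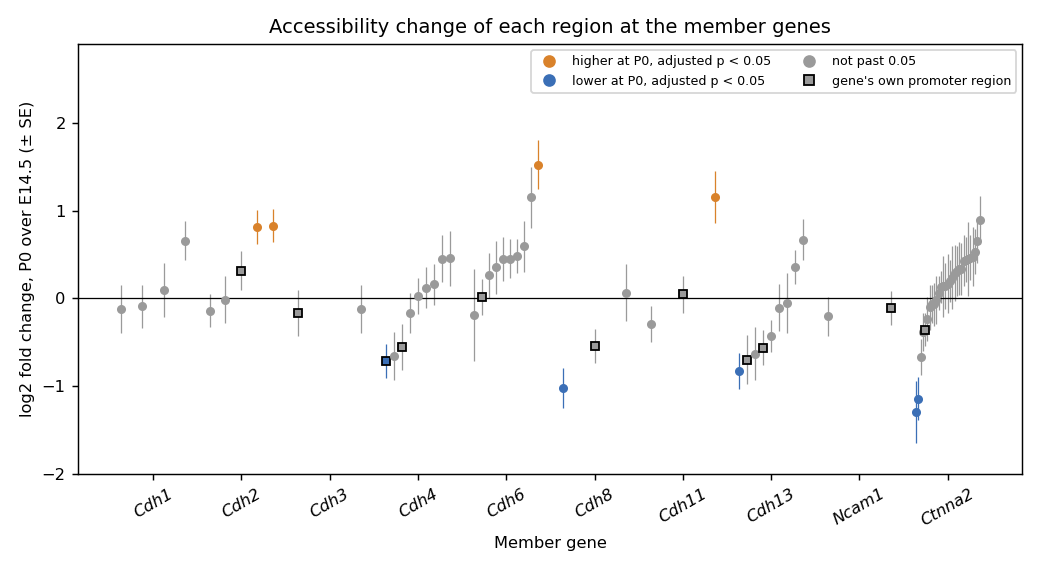
Log2 fold change of P0 over E14.5 with its SE (vertical axis) of each region at the 10 genes (horizontal axis, regions of a gene in order of change), with squares for own promoters, orange for regions higher and blue for regions lower at P0 past an adjusted p of 0.05, and grey for the rest. The region shared by Cdh1 and Cdh3 is drawn at both, and the 9 coloured points run from -1.30 at Ctnna2 to 1.53 at Cdh6.

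The labelled cell type was checked against promoters of marker genes. A promoter region was listed for 6 of 9 nephron progenitor markers (Six2, Eya1, Osr1, Sall1, Wt1 and Gdnf), and none for Cited1, Meox1 or Itga8, the gene whose product was used for selection. Their summed level, as CPM (counts divided by library totals adjusted with TMM factors), was 169 to 180 at E14.5 and 142 to 193 at P0. Promoter regions were also listed for 4 of 8 stromal markers (87.1 to 116 at E14.5, 92.6 to 114 at P0), 4 of 8 ureteric markers (99.2 to 107 and 94.7 to 99.5) and 2 of 6 endothelial markers (46.5 to 53.2 and 43.4 to 54.5). None was listed for the 5 immune markers. The names of Adgre1 among them and of the stromal marker Pdgfra are paired with no identifier in the table, so these genes were looked for only by position, as promoter regions without a gene name that span an end of the RefSeq gene. None of these promoters passed the test, and their part in the results below was not tested. The sums cover unlike numbers of promoters, so they cannot be ranked between cell types. The check does not show which cell type prevailed.

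Among the type I cadherins, Cdh2 had 2 regions that were more open at P0. N-cadherin is the main cadherin of many mesenchymal cells. The region chr18:16620214-16624313 overlaps an exon, 187 kb inside the gene from its promoter end. Its E14.5 libraries had 25.6, 29.1 and 27.3 CPM and its P0 libraries 55.2, 47.2 and 43.4 CPM. Each P0 library stood well above each E14.5 library, with means of 27.3 ± 1.73 and 48.6 ± 6.01 CPM (SD, n = 3 each). The log2 fold change was 0.83 (SE 0.19, adjusted p = 0.0218). It did not pass without E14.5 replicate 1 (adjusted p = 0.101), E14.5 replicate 3 (0.141) or P0 replicate 1 (0.180), and the adjusted p ran from 0.00196 to 0.180 over 13 alternatives. The authors' table lists 1 Sox motif name and several forkhead names in this region.

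The other Cdh2 region, chr18:16740530-16741808, lies in the gene outside exons, 68.1 kb from the same end. It had 25.9, 29.4 and 23.9 CPM at E14.5 and 50.7, 38.6 and 50.2 CPM at P0. The groups did not overlap, although P0 replicate 2 lay nearer to the E14.5 values than the other two. The means were 26.4 ± 2.79 and 46.5 ± 6.85 CPM (SD, n = 3 each), which differed by 0.82 on the log2 scale (SE 0.20, adjusted p = 0.0269). The call was lost without E14.5 replicate 1 (0.106), E14.5 replicate 3 (0.188), P0 replicate 1 (0.187) or P0 replicate 3 (0.0516), and the adjusted p ran from 0.00404 to 0.188. Per kb it was the most accessible Cdh2 region outside the promoter, and the only motif name listed there is that of Six2, a transcription factor that keeps nephron progenitors undifferentiated.

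The Cdh2 promoter region itself was not called. It had 86.0, 76.5 and 82.4 CPM at E14.5 and 104, 74.8 and 126 CPM at P0, so that P0 replicate 2 lay below every E14.5 library and the other two above (log2 fold change 0.31, SE 0.22, adjusted p = 0.490). The remaining Cdh2 regions, 1 beyond each end of the gene, had log2 fold changes of -0.14 and -0.01.

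Cdh4, the R-cadherin described in kidney mesenchyme as it turns epithelial, went the other way at its promoter. The region chr2:179441694-179444546, which spans the start of the gene, had 77.6, 68.9 and 81.3 CPM at E14.5 and 42.0, 44.8 and 52.3 CPM at P0. Every P0 library lay below every E14.5 library, with means of 75.9 ± 6.34 and 46.3 ± 5.32 CPM (SD, n = 3 each). The log2 fold change was -0.71 (SE 0.19), with an adjusted p of 0.0498, close to the threshold. The call did not hold without E14.5 replicate 1 (0.162), E14.5 replicate 2 (0.0582), E14.5 replicate 3 (0.255) or P0 replicate 1 (0.289), or with total-count scaling (0.0783). The adjusted p ran from 0.00515 to 0.289.

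A region listed as another Cdh4 promoter, chr2:179774303-179775263, lay 332 kb further into the gene and differed by -0.56 on the log2 scale (SE 0.26, adjusted p = 0.276), with all P0 libraries below. Within the gene outside promoters, the 7 other Cdh4 regions had log2 fold changes from -0.65 to 0.46, and none passed. The most accessible of them per kb, chr2:179537077-179538449, differed by -0.17 (SE 0.23, adjusted p = 0.760). Of all 9 Cdh4 regions, 5 lay above 0 (55.6%, beside 51.1% of all regions) and 4 below.

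Cdh1, the E-cadherin whose appearance marks the new epithelium, had no listed region in its gene body and none listed as its own promoter. A gene body without a listed region is common: of 21883 protein-coding genes, 46.9% had none, and of the 5299 at least as long as Cdh3, the shortest of the 10 genes, 15.0% had none. The 4 regions in the Cdh1 window lay beyond the gene, 2 of them in the neighbouring gene Tango6. The nearest, chr8:106676635-106679021, has its midpoint 7.58 kb past the gene. It had 15.3, 11.0 and 11.7 CPM at E14.5 and 22.4, 21.2 and 16.4 CPM at P0. All P0 libraries were above, with a log2 fold change of 0.66 (SE 0.22) that did not pass the test (adjusted p = 0.107). The most accessible per kb outside promoters, chr8:106718021-106718577 in Tango6, differed by 0.09 (SE 0.31, adjusted p = 0.915). Here absence from the table means that no region was listed, and accessibility below the authors' calling threshold was not measured.

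Cdh3, P-cadherin, also had no region in its body. The region listed as its promoter, chr8:106507723-106509131, has its midpoint 2.425 kb beyond the gene and spans neither end of it. It had 12.2, 12.2 and 8.29 CPM at E14.5 and 7.29, 10.3 and 11.5 CPM at P0. The groups overlapped (log2 fold change -0.17, SE 0.26, adjusted p = 0.794). The region between Cdh3 and Cdh1, chr8:106560407-106561894, differed by -0.12 (SE 0.27, adjusted p = 0.866). Over the 19 regions at the type I genes, 3 were called (15.8%, 2 higher and 1 lower), beside 4.73% of all regions (1.79% higher and 2.94% lower). Their median log2 fold change was 0.03, beside 0.01 over all regions.

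Among the type II cadherins, the region with the largest rise of all 75 lay upstream of Cdh6, whose product is an early cadherin of future proximal tubule. It is chr15:13189668-13190607, an intergenic region 940 bp long with its midpoint 16.5 kb before the RefSeq start whose promoter is printed above. Its E14.5 libraries had 4.15, 3.24 and 4.20 CPM and its P0 libraries 12.1, 10.3 and 10.9 CPM. The libraries were tight within each stage and far apart between stages, with means of 3.87 ± 0.542 and 11.1 ± 0.909 CPM (SD, n = 3 each). These values rest on 35 to 37 counts a library at E14.5 and 68 to 138 at P0. The log2 fold change was 1.53 (SE 0.28, adjusted p = 0.00653), a 2.88-fold rise. It was the only one of the 9 calls lost by leaving out no library but P0 replicate 1 (adjusted p = 0.0543), and over the alternatives the adjusted p ran from 0.000129 to 0.0543. No motif name was listed in it.

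**Figure D2:**
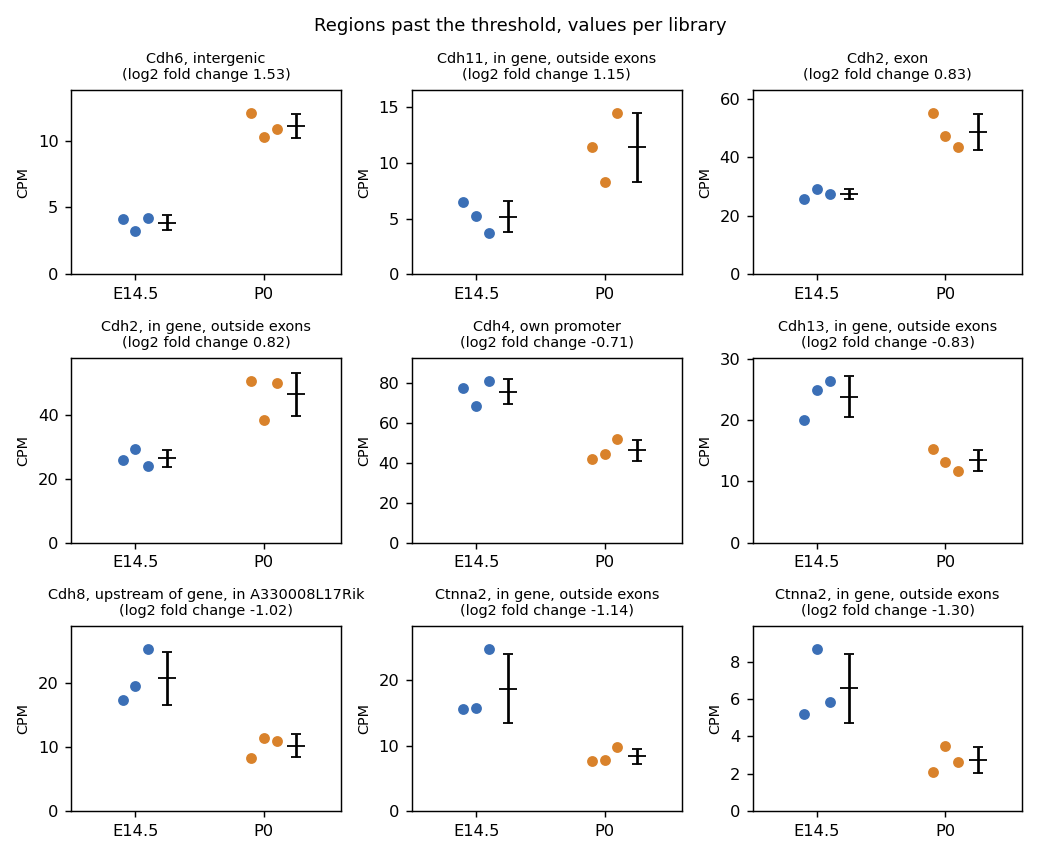
CPM (vertical axes, from 0) of each library in the 9 regions past an adjusted p of 0.05, with E14.5 (blue) and P0 (orange) side by side and the mean ± SD of 3 libraries in black. In each panel the 3 libraries of one stage lie on one side of the 3 of the other, as at Cdh6, with 3.24 to 4.20 CPM at E14.5 and 10.3 to 12.1 CPM at P0.

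The neighbouring region chr15:13192578-13193906, 19.6 kb before the same start and the most accessible Cdh6 region per kb outside the promoter, had 15.1, 23.5 and 11.0 CPM at E14.5 and 23.1, 19.4 and 25.2 CPM at P0. The groups overlapped there (log2 fold change 0.45, SE 0.25, adjusted p = 0.371). A region in the gene outside exons, chr15:13149514-13150058, named because of its size after its values were seen, was higher at P0 by 1.15 on the log2 scale (SE 0.35) but missed the threshold (adjusted p = 0.0769), with all P0 libraries above. Of the 10 Cdh6 regions, 9 had log2 fold changes above 0 (beside 51.1% of all regions), with a median of 0.45 (beside 0.01), and 1 passed (beside 4.73%). Of the 10, 1 was a promoter. Over all regions outside promoters, 59.3% lay above 0, the median was 0.10 and 6.59% were called. The Cdh6 promoter was not among those that differed: it had 49.7, 58.6 and 55.9 CPM at E14.5 and 52.3, 45.9 and 68.2 CPM at P0 (log2 fold change 0.02, SE 0.20, adjusted p = 0.972). The P0 values straddled those of E14.5.

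Of the 3 regions of Cdh11, a cadherin of mesenchymal and stromal cells, 1 was called, where 4.73% of all regions were. The region chr8:102713290-102714653 lies in the gene outside exons and had 6.52, 5.26 and 3.74 CPM at E14.5 and 11.5, 8.32 and 14.52 CPM at P0. The groups did not overlap, but P0 was widely spread, with means of 5.17 ± 1.40 and 11.4 ± 3.10 CPM (SD, n = 3 each). The log2 fold change was 1.15 (SE 0.30, adjusted p = 0.0399). The call was lost without E14.5 replicate 1 (0.0564), E14.5 replicate 2 (0.0651), E14.5 replicate 3 (0.211), P0 replicate 1 (0.159) or P0 replicate 3 (0.106), within a range of 0.0141 to 0.211. Forkhead and Meis1 motif names are listed in it.

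The Cdh11 promoter, chr8:102783611-102787444, differed by 0.05 (SE 0.21, adjusted p = 0.941). The region beyond the other end, chr8:102595603-102597395, was the most accessible per kb outside the promoter and differed by -0.29 (SE 0.20, adjusted p = 0.481). Just outside the window, 60.3 kb from the gene, the region from 102845193 to 102846362 had 12.3 ± 2.53 CPM at E14.5 and 5.21 ± 1.25 CPM at P0 (SD, n = 3 each; log2 fold change -1.26). It passed edgeR's test (adjusted p = 0.0196), lower at P0, opposite in sign to the called Cdh11 region. It is the region nearest to any of the 10 windows from outside, and the nearest from inside, 49.1 kb from Cdh8, had a log2 fold change of 0.07.

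Cdh8, a type II cadherin known mainly from neurons, was less open at P0 upstream of its start. The region chr8:99443100-99444891 lies 27.5 kb before the RefSeq start of Cdh8 and inside the long non-coding gene A330008L17Rik, whose RefSeq span overlaps the upstream end of the Cdh8 gene body, so its accessibility cannot be assigned to either gene alone. Its libraries had 17.3, 19.6 and 25.3 CPM at E14.5 and 8.23, 11.5 and 11.0 CPM at P0. The groups were clearly separate, with means of 20.8 ± 4.13 and 10.2 ± 1.76 CPM (SD, n = 3 each). The log2 fold change was -1.02 (SE 0.23, adjusted p = 0.0201). It did not pass without E14.5 replicate 3 (0.149) or P0 replicate 1 (0.126), within a range of 0.00368 to 0.149. Jun and forkhead motif names are listed there.

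The region over the start of both genes, chr8:99414282-99417797, had 54.7, 68.3 and 52.2 CPM at E14.5 and 37.9, 41.5 and 41.0 CPM at P0. All P0 libraries were below, yet the log2 fold change of -0.54 (SE 0.19) did not pass (adjusted p = 0.131). The type II genes together had 16 regions, of which 2 were called higher and 1 lower (18.8%, where 4.73% of all regions were called, 1.79% higher and 2.94% lower). The median log2 fold change of the 16 was 0.31, against 0.01 for all regions and 0.10 for all regions outside promoters. Cdh6 held 10 of the 16, with a median of 0.45, while the medians of Cdh11 and Cdh8 were 0.05 and -0.54. The value for the 16 thus follows mostly from Cdh6.

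Cdh13, T-cadherin, is held in the membrane by a lipid anchor and lacks the tail that binds catenins. Its region chr8:118451698-118453140, in the gene outside exons, had 20.0, 24.96 and 26.4 CPM at E14.5 and 15.3, 13.2 and 11.8 CPM at P0. P0 lay below E14.5 in every pair of libraries, with means of 23.8 ± 3.33 and 13.4 ± 1.79 CPM (SD, n = 3 each). The log2 fold change was -0.83 (SE 0.21, adjusted p = 0.0316). The call was lost without E14.5 replicate 3 (0.178), P0 replicate 1 (0.0848), P0 replicate 2 (0.0651) or P0 replicate 3 (0.0701), or with total-count scaling (0.0526), within a range of 0.0130 to 0.178.

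Both regions listed as Cdh13 promoters had negative values that did not pass: -0.56 (SE 0.20, adjusted p = 0.138) at chr8:118283040-118284979, with all P0 libraries below, and -0.70 (SE 0.28, adjusted p = 0.180) at chr8:118313071-118314969, where the groups overlapped. They lie 144 and 174 kb inside the RefSeq gene from its low-coordinate end, and no listed region spans either end of the gene. In all, 7 of the 9 Cdh13 regions lay below 0 (77.8%, beside 48.9% of all regions), with a median of -0.43 (beside 0.01). One of the 7 is the promoter of the neighbour Hsbp1, at the far end of the window.

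Ncam1, the adhesion molecule of condensed mesenchyme and neurons, had 2 regions. Its promoter region, chr9:49796541-49799240, had 21.2, 28.8 and 28.0 CPM at E14.5 and 22.8, 23.2 and 26.4 CPM at P0, which overlapped (log2 fold change -0.11, SE 0.20, adjusted p = 0.822). The other was the promoter of the neighbour Ttc12, at -0.21 (SE 0.23, adjusted p = 0.690). No region was listed in the rest of the Ncam1 gene body.

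Ctnna2, the alpha-catenin best known from neurons, ties the cadherin and beta-catenin complex to actin. Its gene is 1098 kb long and held 28 of its 29 regions in the body. The region chr6:77844050-77845360, 135 kb into the gene, had 15.7, 15.7 and 24.8 CPM at E14.5 and 7.60, 7.87 and 9.71 CPM at P0. All P0 libraries were below, and E14.5 replicate 3 stood apart on the high side. The means were 18.7 ± 5.25 and 8.39 ± 1.15 CPM (SD, n = 3 each), and the log2 fold change was -1.14 (SE 0.25, adjusted p = 0.0166). It did not pass without E14.5 replicate 3 (0.138) or P0 replicate 1 (0.0942), within a range of 0.00215 to 0.138. Meis1, Six2 and Junb motif names are listed in it.

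The region chr6:77927616-77928365, 51.7 kb into the gene, was the other one called. It had 5.22, 8.67 and 5.84 CPM at E14.5 and 2.08, 3.48 and 2.61 CPM at P0, without overlap. The means were 6.58 ± 1.84 and 2.72 ± 0.707 CPM (SD, n = 3 each), and the log2 fold change was -1.30 (SE 0.35, adjusted p = 0.0484). The call was lost without E14.5 replicate 1 (0.0766), E14.5 replicate 2 (0.117), E14.5 replicate 3 (0.149), P0 replicate 1 (0.228) or P0 replicate 3 (0.0687), with total-count scaling (0.0617) and with limma-voom (0.0561). The adjusted p ran from 0.0222 to 0.228.

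Of the 29 Ctnna2 regions, 19 (65.5%) had log2 fold changes above 0, with a median of 0.17, near the 62.1% and 0.13 of all regions in genes outside exons. All P0 libraries lay below all E14.5 libraries in 5 of the 29 (17.2%) and above them in 1 (3.45%), where 11.3% and 18.3% of all regions in genes outside exons did so. Both that passed were lower at P0, and these 2 of 29 (6.90%) were near the 6.26% called of all such regions (2.74% higher and 3.52% lower). The highest, 0.89 (SE 0.27, adjusted p = 0.0793) at chr6:77024600-77026711, was named after its values were seen and did not pass. The promoter had 61.1, 65.8 and 64.7 CPM at E14.5 and 55.9, 48.6 and 45.3 CPM at P0. All P0 libraries were below, by -0.36 on the log2 scale (SE 0.19, adjusted p = 0.340). The most accessible region per kb outside promoters, chr6:77633811-77634660, differed by -0.07 (SE 0.22, adjusted p = 0.911). Lrrtm1, a gene lying within Ctnna2, held 3 of the 29, with log2 fold changes of 0.06, 0.34 and 0.14.

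**Figure D3:**
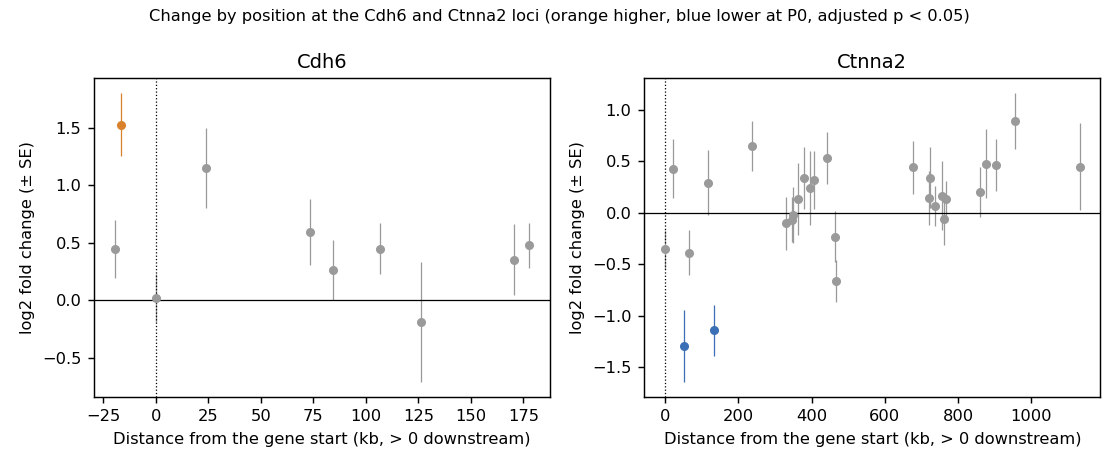
Log2 fold change of P0 over E14.5 (vertical axes) with its SE against distance of the region from the gene start in kb (horizontal axes, positive downstream) at Cdh6 and Ctnna2, with grey for regions that did not pass. The coloured points lie 16.5 kb before the Cdh6 start (orange, higher at P0) and 51.7 and 135 kb inside Ctnna2 (blue, lower at P0), while both promoters, at distance 0, are grey.

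Own promoters, 11 regions at 9 of the 10 genes, were compared per kb of region. In order of mean level over the 6 libraries they were Cdh2 with 26.7 CPM per kb, Cdh4 with 21.4, Ctnna2 with 19.9, Cdh6 with 19.1, Cdh11 with 16.1, Cdh8 with 14.0, a Cdh13 promoter with 9.80, Ncam1 with 9.28, the inner Cdh4 promoter with 8.40, Cdh3 with 7.31 and the other Cdh13 promoter with 5.13. Each neighbouring pair in this order overlapped in range over the 6 libraries. Over all promoter regions the median was 12.8 CPM per kb, with quartiles at 8.97 and 21.4. The Cdh2 promoter thus lay at the 82.5th percentile of promoter regions and that of Cdh3 at the 11.0th. The Cdh3 region and both Cdh13 regions are listed as promoters but lie away from the ends of the RefSeq gene. At E14.5 the Cdh4 promoter led with 26.6 CPM per kb over 23.9 for Cdh2, and at P0 Cdh2 had 29.6 and Cdh4 16.2. The sequence with the most CG dinucleotides of those printed, that of Ctnna2, lay in the third most accessible of these promoters.

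Of all promoter regions in the table, 0.851% passed the test, beside 6.59% of the other regions. Of the 11 own promoters, 1 was lower at P0 (Cdh4) and none higher. In 5 of the 11 all P0 libraries lay below all E14.5 libraries, beside 12.1% of all promoter regions. At an unadjusted p under 0.05, 4 were lower and 0 higher, beside 6.04% of promoter regions lower at that level. The median log2 fold change was -0.36 over the 11, against -0.10 over all promoter regions, and 8 of the 11 (72.7%) lay below 0 under each of the 3 scalings tried, near the 66.0% of all promoter regions.

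**Figure D4:**
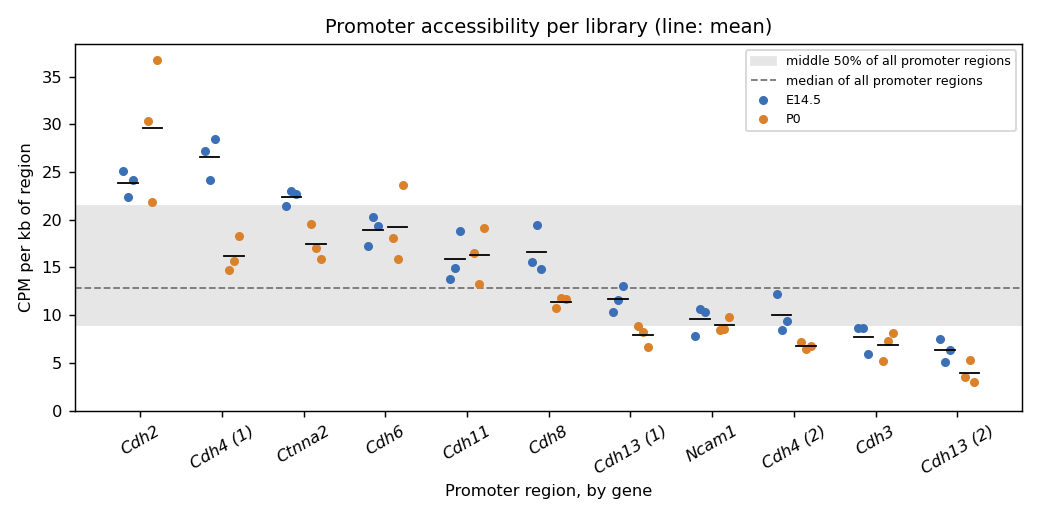
CPM per kb (vertical axis) of the 11 own promoter regions (horizontal axis) in each library at E14.5 (blue) and P0 (orange), with a black line at each mean, a grey band from 8.97 to 21.4 for the quartiles of all promoter regions and a dashed line at their median of 12.8. The promoter at the start of Cdh4 separates by stage, from a mean of 26.6 to 16.2 CPM per kb, and Cdh2 ranges widely at P0.

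Summed over all regions of a gene, accessibility was higher at P0 in every library for Cdh2 and Cdh6 and lower in every library for Cdh4, Cdh8 and Cdh13. The Cdh2 sum went from 169 ± 2.76 CPM at E14.5 to 227 ± 30.6 CPM at P0 (SD, n = 3 each), and the Cdh6 sum from 167 ± 6.70 to 214 ± 23.4 CPM. Both had a wider spread at P0, where replicate 2 was lowest. The Cdh4 sum went from 167 ± 7.97 to 138 ± 3.74 CPM, the Cdh8 sum from 90.1 ± 4.33 to 61.9 ± 7.15 CPM and the Cdh13 sum from 149 ± 8.27 to 123 ± 4.89 CPM. Over 19326 protein-coding genes with a region in such a window, 17.2% did not overlap between stages, 4.69% with P0 above and 12.5% below. The sums overlapped at Cdh1 (45.7 and 51.3 CPM on average), Cdh3 (20.7 and 18.7), Cdh11 (107.8 and 108.1), Ncam1 (41.6 and 37.6) and Ctnna2 (415 and 426). With a window of 10 kb in place of 50 kb the difference of P0 minus E14.5 went from 47.3 to 22.9 CPM at Cdh6, from -28.2 to -18.3 at Cdh8 and from -26.4 to -15.8 at Cdh13, with the same signs. These sums carry no test, and strong promoters weigh most in them.

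**Figure D5:**
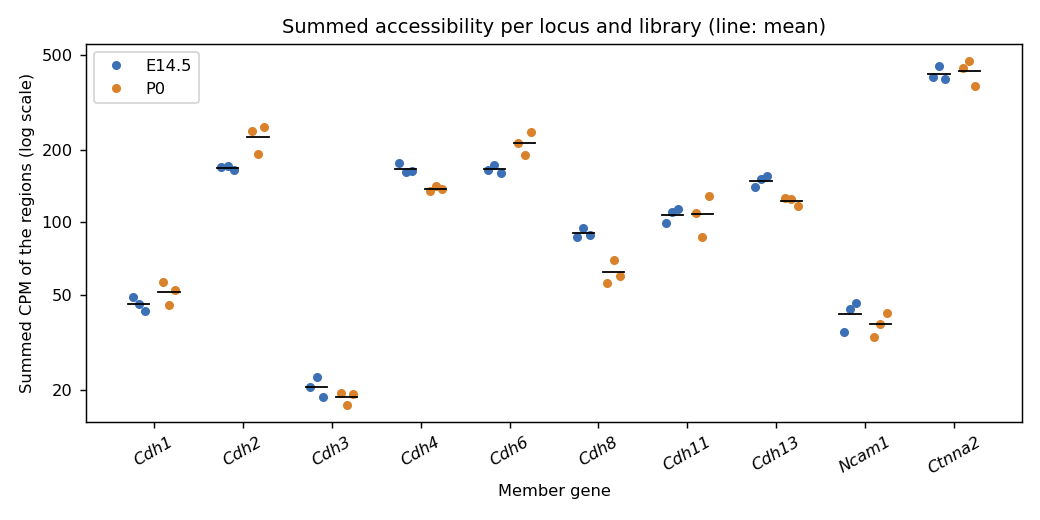
Summed CPM of all regions of each gene (vertical axis, log scale) for the 3 E14.5 (blue) and 3 P0 (orange) libraries, with a black line at each mean. Cdh2 and Cdh6 lie higher at P0, Cdh4, Cdh8 and Cdh13 lower, and the stages overlap at the other 5 genes.

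In the whole set of 75, most regions lay in genes outside exons (45, 60.0%, beside 22.9% of all regions), fewer were promoters (15, 20.0%, beside 32.4%) or intergenic (10, 13.3%, beside 39.0%), and 5 overlapped exons. The rule takes gene bodies, and Ctnna2 and Cdh13 are 1098 and 1185 kb long, so the makeup follows in part from the rule. Outside promoters, 8 of 60 regions were called (13.3%), where 6.59% of all such regions were. Forkhead motif names were listed in 17 of the 75 (22.7%, beside 21.0% of all regions), Sox names in 10 (13.3%, beside 13.2%), Meis names in 7 (9.33%, beside 5.46%) and Six2 in 5 (6.67%, beside 2.65%). Of the other families counted, Smad (9, 12% beside 9.02%), Jun or Bach (6, 8% beside 4.49%) and Pax (5, 6.67% beside 4.26%) had shares above those of all regions. Maz (14, 18.7% beside 21.3%), Sall (11, 14.7% beside 16.8%) and E2F (10, 13.3% beside 15.2%) had shares below them, and no test was run on any of the 10 families. A listed name is the authors' annotation of a match and no measure of binding. FANTOM enhancers were listed in 3 of the 75 (4.00%, beside 9.65%) and VISTA enhancers in 0 of the 75 (beside 0.655%).

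Other genes of adhesion and of the epithelial switch were counted by the same position rule. At 15 adherens junction genes, from beta-catenin to nectins, 4 of 101 regions rose and 0 fell (median log2 fold change 0.02). That is 3.96% called, all higher, near the 4.73% of all regions, of which 1.79% rose and 2.94% fell. The 3 with the largest change were near Ctnnd1, in the neighbour Zdhhc5 (1.50, adjusted p = 0.0133), near Ctnnd2 (1.06, adjusted p = 0.0203) and in Ctnna3 (1.00, adjusted p = 0.0177). Ctnnd1 and Ctnnd2 encode p120-type catenins, which steady cadherins at the membrane. At 18 other genes, namely cadherins, Ncam2, L1cam and the sialyltransferases St8sia2 and St8sia4, 4 of 99 regions rose and 4 fell (8.08% called, 4.04% in each direction, beside 4.73% of all regions, 1.79% higher and 2.94% lower), with a median of 0.06. The largest changes were near Ncam2 (-1.77, adjusted p = 0.0385), in St8sia4, which modifies Ncam1 (-1.31, adjusted p = 0.0249), and in Cdh12 (1.28, adjusted p = 0.0174). The Ncam2 region had low levels, 5.49 ± 0.370 CPM at E14.5 and 1.71 ± 1.28 CPM at P0 (SD). Its call was lost when any of 5 libraries was left out. None of the calls of either list held without E14.5 replicate 3 or without P0 replicate 1, where the counts were 0.

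At 10 mesenchyme genes, such as Snai1, Twist1, Zeb1 and Vim, 0 of 33 regions passed edgeR's test, and 3 (9.09%) did at an unadjusted p under 0.05, all higher (median 0.11), near the 9.85% of all regions that were higher at that level. DESeq2 and limma-voom also called 0 there, and without E14.5 replicate 2 edgeR called 1. At 16 epithelium genes, 1 of 51 regions rose and 0 fell (median -0.12). It lay near Pax8, a regulator of nephron epithelium (log2 fold change 0.98, adjusted p = 0.0126). The call was lost without E14.5 replicate 3 or P0 replicate 1, where the count was 0 and 339 and 474 of all regions passed. At an unadjusted p under 0.05, 3 of the 51 were higher and 5 lower (15.7%, beside 18.7% of all regions). Promoters made up 66.7% of the epithelium regions and 45.5% of the mesenchyme regions, and 0.851% of all promoter regions were called, beside 4.73% of all regions.

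The authors' deposited table gives its own comparison of the stages, from the same libraries. It classes 4 of the 75 regions as opening, 4 as closing and 67 as stable. By the authors' deposited table, 8 of the 75 had an adjusted p under 0.1 (10.7%, where 5.34% of all regions did) and 3 under 0.05 (4.00%, where 1.39% did), namely both Cdh2 regions and the Cdh6 region. Of the 9 regions called by edgeR, 7 were among these 8, and all 9 had the same sign in both. The remaining one of the authors' deposited table was the region over the Cdh8 start (adjusted p = 0.0706), and the 2 Ctnna2 regions were stable in the authors' deposited table (adjusted p = 0.106 and 0.114).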

How the data were processed

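ATAC-seq counts of 6 libraries, 3 a stage, were analysed, with stage and replicate number taken from the source names. Per the file headers, the deposited table holds 1 raw count per region and library, and the authors' own log2 fold change, p-value and adjusted p-value between stages, used only in the last paragraph above. Its build is mm10, per the submitters' processing notes, while the aligner, peak caller, counting rule, Tn5 shift and duplicate removal are not given in the sources used here. Coordinates are as the table gives them. Of 45489 rows, 1966 repeated a region and were dropped, and every column of sample values was matched to a library by its title (0 unmatched). No pair of libraries of a stage matched within sampling noise (chi-square per degree of freedom 5.33 to 17.7).

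All 43523 regions were fitted with edgeR 4.0.16 (R 4.3.3): TMM scaling, the filterByExpr filter, which removed 0, a quasi-likelihood F test on stage alone, and Benjamini-Hochberg adjustment over the whole table with a threshold of 0.05. SE values are the log2 fold change over the square root of F. The fit was also run on simulated counts, with an outcome that is not reported here. CPM use TMM-scaled totals and mean ± SD is over 3 libraries. DESeq2 1.42.0 and limma 3.58.1 (voom) were alternatives, beside other scalings, filters, windows, a replicate term and leaving out each library. Depth, from 6492996 to 12292629 counts, limits regions with few counts most.

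Gene spans and promoter sequences are RefSeq's (GRCm38.p6), which matched all 10 genes by symbol for spans and 3 for promoters. Protein sequences were not used here, so a preset search for the letters HAV was not run. Promoter, exon and gene classes, motif names and enhancers are the table's own. A gene's own promoter is a region listed as its promoter or holding its RefSeq start. Regions named were those past the threshold, own promoters and, at each gene, the most accessible region per kb outside promoters, and, of the gene lists, at most 3 past the threshold by fold change. Others are marked as chosen after their values were seen or serve as neighbours and window edges. The genes and lists were chosen with earlier results of these data known. One preset marker list is not reported. Tables and figures used Python 3.11.15, pandas 2.3.3, numpy 2.4.6 and matplotlib 3.10.9.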

Additional observations from a re-analysis of the deposited data

How the results depend on the processing

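The 9 called regions kept their direction under every alternative run, and of the 25 named regions 5 changed sign in at least 1, none of them called. These were the promoters of Cdh6 (0.02, down to -0.17) and Cdh11 (0.05, down to -0.10) and regions at Cdh1 (0.09, down to -0.02), Cdh3 (-0.12, up to 0.01) and Ctnna2 (-0.07, up to 0.04), all as log2 fold changes. The overlapping sums of Cdh11 and Ctnna2 also changed sign, to as low as -9.84 and -11.1 CPM. The 9 calls were lost in 38 of 117 refits, most of them with a library left out. At the 10 genes, 9 regions passed (4 higher, 5 lower), and leaving out 1 library gave 0 to 9 in all, 0 to 6 higher and 0 to 4 lower. Without E14.5 replicate 1 there were 4, without E14.5 replicate 3 only 1, without P0 replicate 1 none and without P0 replicate 3 5. Total-count scaling left 2 of the 5 lower calls. With the replicate block, which assumes that equal numbers pair libraries across stages, 5 passed, 2 of them lower; the adjusted p was 0.0627 at the Cdh4 promoter, 0.0743 in Cdh11, 0.0538 in Cdh13 and 0.0684 in the Ctnna2 region 51.7 kb into the gene. Deviations of same-numbered libraries correlated at 0.07, -0.14 and 0.08 and E14.5 replicate 1 correlated best with P0 replicate 2, so the numbers were not taken to pair them. Of all regions, 2059 passed, 778 higher and 1281 lower. A threshold of 0.1 gave 3490, 1599 of them higher, and leaving out 1 library gave 339 to 2987, 56 to 1692 higher and 283 to 1381 lower. For the gene lists, alternatives were chosen after seeing the data. Leaving out 1 library gave 0 to 6 adherens junction regions (4 with all), 0 to 10 of the other cadherins, Ncam2, L1cam and sialyltransferases (8), 0 to 1 of mesenchyme (0) and 0 to 2 of epithelium (1). With windows of the gene body and 10 kb, the summed CPM at P0 minus E14.5 were 22.9 at Cdh6, -18.3 at Cdh8 and -15.8 at Cdh13, nearer to 0 than with 50 kb. That window holds fewer regions, and the causes of the other shifts were not tested.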
